A study of Mus musculus with 16 samples.

Results

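The comparison set 1 fibroblast line, Cl_1, against 2 others, Cl_2 and Cl_3, on every tRNA counted in them. It used 6 of the 16 libraries of a mouse study on correcting a pathogenic mutation of the mitochondrial tRNA-Ala gene with base editors: the 2 libraries titled MEF_Cl_1 and the 4 titled MEF_Cl_2 and MEF_Cl_3. Another line of the same table, Ctrl_1 with 2 libraries, had no weight in the contrast and its values are given only beside those of the Cl lines. The cells were mouse embryonic fibroblasts (MEFs), and the 2 libraries of a line were 2 cell passages of it. Each line may be 1 clone. The p-values of the main tests on tRNA counts measure the spread between passages and not between independently made lines. The labels name the m.5024T mouse model, do not say which lines carry the mutation or were edited, and do not explain Ctrl or Cl. The table counts tRNAs only, so the fibroblast label was not checked against marker genes. RNA had been oxidised and beta-eliminated, and libraries followed mim-tRNAseq, a method that reads modified tRNAs at full length.

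Each transfer RNA carries 1 amino acid to the ribosome and reads codons through its anticodon. Nuclear tRNA genes come in many copies, and isodecoders are tRNAs that share an anticodon but differ elsewhere in their sequence. RNA polymerase III transcribes the nuclear genes one by one, whereas mitochondrial tRNAs are cut out of long transcripts of both mitochondrial DNA strands. Names below give the amino acid, the anticodon in DNA letters and the number of the isodecoder.

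The MEF table held 819 rows, 22 of them mitochondrial, 265 nuclear and 532 named tRX. The 6 Cl libraries held 1473330 to 3454444 counts, of which tRX rows took 57 to 193. A filter on low counts left 201 rows, 175 nuclear, 22 mitochondrial and 4 tRX. Levels are CPM values, counts scaled to a common library size, and differences are log2 values of Cl_1 minus the mean of Cl_2 and Cl_3, called where the adjusted p of edgeR's quasi-likelihood test was under 0.05.

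In Cl_1 a set of minor nuclear isodecoders was lower, several more than 2-fold. The sum of isodecoders per anticodon, in which minor members weigh little, moved little. Of 201 rows, 49 passed the test (24.4%). Of these, 33 were lower in Cl_1 (16.4%) and 16 higher (7.96%), and all 49 were nuclear. At an unadjusted p under 0.05 the number was 74 (36.8%). The median difference was -0.98 among the 33 lower rows, with a range of -2.38 to -0.25. It was 0.28 among the 16 higher rows, with a range of 0.19 to 0.48, and 0.01 over all 201 rows. Of the lower rows 15 differed by more than 2-fold, and of the higher rows 0. Both Cl_1 libraries lay outside the range of the 4 Cl_2 and Cl_3 libraries in 90 rows (44.8%), 48 below (23.9%) and 42 above (20.9%), and the 49 called rows were all among them. The 33 lower rows made up 3.32% to 3.60% of all counts in the Cl_1 libraries and 5.19% to 6.34% in those of Cl_2 and Cl_3. The 16 higher rows made up 11.7% to 12.1% in Cl_1 and 10.2% to 10.5% in the other lines.

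The split between directions depended on scaling. With library totals in place of scaling factors there were 7 higher and 35 lower rows, and with library sizes set to the nuclear counts also 7 and 35. DESeq2 gave 27 higher and 37 lower. Single libraries also moved the totals: 29 rows passed without Cl_1 replicate 1, 32 without Cl_2 replicate 2 and 30 without Cl_3 replicate 2. The rows called lower were not the same throughout when any 1 of the 8 libraries was left out. Some of the 33 lost the call in each of these fits except that without Ctrl_1 replicate 2. In proportion, the number of higher rows moved more than that of lower rows. It was 3 without Cl_2 replicate 1, 5 without Cl_2 replicate 2, 6 without Cl_3 replicate 2 and 7 without either Cl_1 replicate 1 or Ctrl_1 replicate 2.

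**Figure D1:**
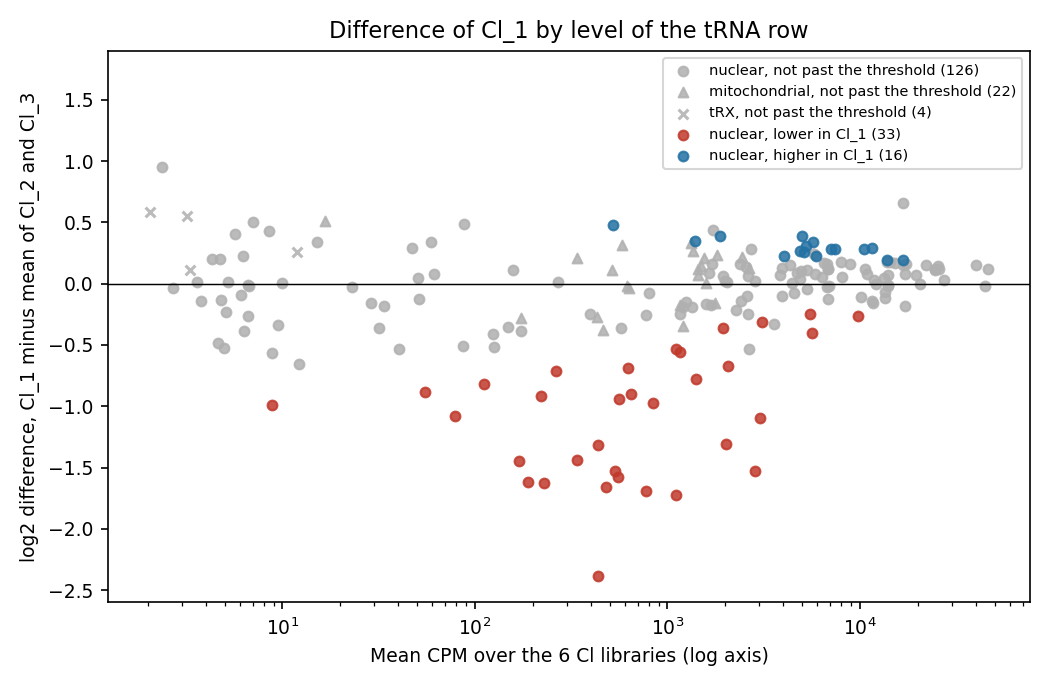
Log2 difference of Cl_1 from the mean of Cl_2 and Cl_3 (y axis) against the mean CPM over the 6 Cl libraries (x axis, log scale), 1 mark per tested row. The 33 rows called lower (red) reach -2.38 and lie mostly at low and middle levels, whereas the 16 called higher (blue) stay between 0.19 and 0.48.

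Both other lines contributed to the contrast. Cl_1 differed from Cl_2 in 34 rows (16.9%), 6 higher (2.99%) and 28 lower (13.9%). It differed from Cl_3 in 52 rows (25.9%), 18 higher (8.96%) and 34 lower (16.9%). Cl_2 and Cl_3 differed from each other in 2 rows (0.995%), 1 in each direction (0.498%). These were tRNA-Gln-TTG-1, higher in Cl_2 by a log2 of 0.49 (edgeR adjusted p = 0.0422), and tRNA-Leu-TAA-2, at -0.37 (edgeR adjusted p = 0.0422). These comparisons share libraries, so their values stand side by side only. Over the 33 lower rows the median difference was -1.05 against Cl_2 and -1.12 against Cl_3, and all 33 were negative against each. Between Cl_2 and Cl_3 the median over these rows was -0.14, with 22 of 33 negative.

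The same rows also differed between the passages of a line. Replicate numbers imply no order, but among the 33 lower rows the library numbered 2 was above that numbered 1 in 27 rows in Cl_1, 27 in Cl_2, 32 in Cl_3 and 15 in Ctrl_1. Over all 201 rows these numbers were 112, 118, 103 and 76. The median of library 2 over library 1 across the 33 rows was 0.23 in Cl_1, 0.13 in Cl_2, 0.24 in Cl_3 and -0.04 in Ctrl_1, on the log2 scale. The part of this gap in the difference between lines was not tested.

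The row with the smallest p was tRNA-Leu-TAA-1, the less abundant of the 2 isodecoders that passed the filter, among 5 in the table, for the anticodon that reads the leucine codon UUA. It stood at 975 and 1046 CPM in Cl_1, 2590.1 and 2874 in Cl_2 and 2226 and 2354 in Cl_3. Both Cl_1 libraries were far below the other 4, and the Ctrl_1 libraries, at 3579.8 and 3652 CPM, were above all of them. The difference was -1.31 (SE 0.08, edgeR adjusted p = 1.00e-04), a level 2.48-fold lower. It was -1.43 against Cl_2 and -1.18 against Cl_3, and 0.25 between Cl_2 and Cl_3.

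The partner isodecoder, tRNA-Leu-TAA-2, stood at 7286 and 6999 CPM in Cl_1, 5769 and 5767 in Cl_2 and 7593 and 7326 in Cl_3, a difference of 0.12 (SE 0.05, edgeR adjusted p = 0.116). Cl_2 was lowest here and Cl_1 lay between Cl_2 and Cl_3. The share of tRNA-Leu-TAA-1 in the counts of this anticodon was 11.8% and 13.01% in Cl_1, 30.98% and 33.3% in Cl_2, 22.7% and 24.3% in Cl_3 and 31.6% and 32.7% in Ctrl_1. The mix of these tRNAs thus separated Cl_1 from the other 3 lines, with no overlap. Another test set each isodecoder against all tested isodecoders of its anticodon together, itself included. There the difference of tRNA-Leu-TAA-1 was -1.15 (edgeR adjusted p = 1.92e-08).

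tRNA-Lys-TTT-2, a minor isodecoder for the lysine codons AAA and AAG, stood at 1139 and 1324 CPM in Cl_1, 2721 and 2940.2 in Cl_2 and 3954 and 4921 in Cl_3. The Cl_1 libraries were lowest of the 6, Cl_3 was above Cl_2, and Ctrl_1 lay at the Cl_1 level with 1328 and 1116 CPM. The difference was -1.53 (SE 0.13, edgeR adjusted p = 3.68e-04), or 2.88-fold lower. Its major partner tRNA-Lys-TTT-1 was at 48066 and 40309 CPM in Cl_1, 44902 and 42706 in Cl_2 and 45172 and 46738 in Cl_3, with overlapping lines and a difference of -0.02 (edgeR adjusted p = 0.865). The minor tRNA's share of the anticodon was 2.31% and 3.16% in Cl_1, 5.69% and 6.405% in Cl_2, 8.01% and 9.47% in Cl_3.

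tRNA-Gly-CCC-2, which reads the glycine codon GGG, was likewise lowest in Cl_1 among the Cl lines. It was at 261 and 358 CPM in Cl_1, 798 and 920.0 in Cl_2 and 1018 and 1293 in Cl_3, and at 189 and 190.4 CPM in Ctrl_1, below Cl_1. The difference from Cl_2 and Cl_3 was -1.69 (SE 0.18, edgeR adjusted p = 5.38e-04), 3.22-fold lower. A second minor isodecoder, tRNA-Gly-CCC-3, was also lower by the test, at -0.56 (edgeR adjusted p = 0.0228), whereas the major one, tRNA-Gly-CCC-1, was at 0.17 (adjusted p = 0.0659).

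Nuclear tRNA-Ala, the cytosolic counterpart of the mitochondrial tRNA the study is about, held 6 of the 33 lower rows among 19 tested, and 1 higher row. Over all 201 rows 16.4% were lower and 7.96% higher. The median over the 19 was -0.18. The largest fall of the contrast was tRNA-Ala-AGC-1, at 95.6 and 130.5 CPM in Cl_1, 470.1 and 568 in Cl_2 and 545 and 791 in Cl_3, from 321 and 303 counts in Cl_1. All 4 other libraries were above both of Cl_1, as was Ctrl_1 with 333 and 294 CPM. The difference was -2.38 (SE 0.23, edgeR adjusted p = 5.38e-04), 5.22-fold lower.

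tRNA-Ala-AGC-3, a more abundant isodecoder of the same anticodon, was at 1587 and 1841 CPM in Cl_1, 3498 and 3648 in Cl_2 and 3585 and 3912 in Cl_3, a difference of -1.09 (SE 0.09, edgeR adjusted p = 3.33e-04), 2.14-fold lower. Cl_2 and Cl_3 were close at this row, with a log2 difference of -0.07. tRNA-Ala-AGC-10 stood at 922 and 961 CPM in Cl_1, 1419 and 1392 in Cl_2 and 1815 and 1915 in Cl_3, -0.78 (SE 0.08, edgeR adjusted p = 5.38e-04), 1.72-fold lower. tRNA-Ala-AGC-2, the most abundant of the 4 lower rows with this anticodon, differed by -0.25 (SE 0.06, edgeR adjusted p = 0.0201), with Cl_1 at 4815 and 5021 CPM and the other 4 libraries between 5649 and 6003.

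For the anticodon TGC, which the mitochondrial tRNA-Ala also has, tRNA-Ala-TGC-1 was at 363 and 502 CPM in Cl_1, 1225 and 1412 in Cl_2 and 1373 and 1734 in Cl_3. The Cl_1 libraries were again the lowest, and Ctrl_1 lay between with 1060.4 and 1066 CPM. The difference was -1.73 (SE 0.17, edgeR adjusted p = 5.38e-04), 3.31-fold lower. tRNA-Ala-TGC-6 was at 81.6 and 71.9 CPM in Cl_1, 262 and 278 in Cl_2 and 157 and 169 in Cl_3, a difference of -1.45 (SE 0.15, edgeR adjusted p = 5.38e-04), 2.73-fold lower, with Cl_2 above Cl_3 and Ctrl_1 lowest at 45.1 and 39.7 CPM. The 2 major isodecoders, tRNA-Ala-TGC-2 and tRNA-Ala-TGC-4, were at 0.12 and 0.18 and did not pass (edgeR adjusted p = 0.147 and 0.0897). The 1 tRNA-Ala row that rose was tRNA-Ala-CGC-2, at 8678 and 8147 CPM in Cl_1, 7094 and 7303 in Cl_2 and 6734 and 6549 in Cl_3, a difference of 0.28 (SE 0.06, edgeR adjusted p = 0.0108).

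**Figure D2:**
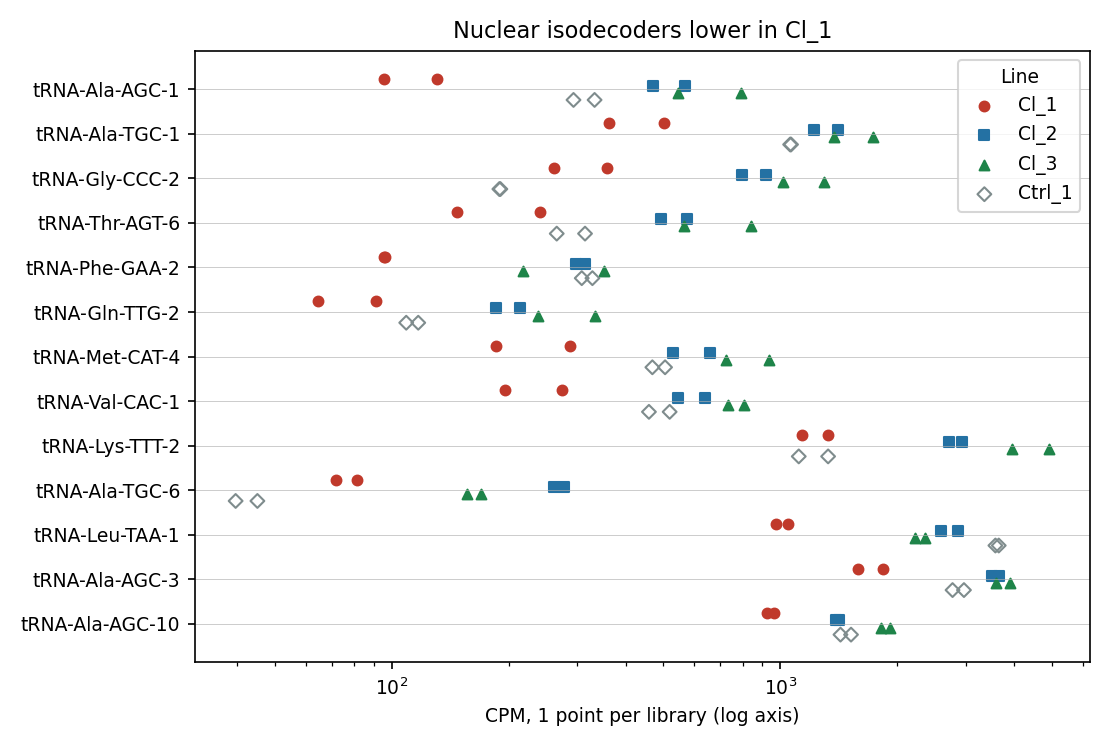
CPM (x axis, log scale) of 13 nuclear isodecoders lower in Cl_1, 1 point per library, with the line given by colour and shape. In each row both Cl_1 libraries (red circles) lie below the 4 of Cl_2 and Cl_3, which the choice of rows by smallest p favours. The open Ctrl_1 diamonds lie below, beside or above Cl_1 depending on the tRNA.

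tRNA-Val-CAC-1, for the valine codon GUG, was at 196 and 274 CPM in Cl_1, 545 and 641 in Cl_2 and 736 and 806 in Cl_3, a difference of -1.53 (SE 0.17, edgeR adjusted p = 7.81e-04) and 2.88-fold lower. tRNA-Phe-GAA-2, a rare phenylalanine isodecoder, was at 95.6 and 96.02 CPM in Cl_1, 298 and 314 in Cl_2 and 218 and 352 in Cl_3, a difference of -1.62 (SE 0.21, edgeR adjusted p = 0.00176) and 3.08-fold lower. Ctrl_1 stood at 459 and 519 CPM for the first and 329 and 308 CPM for the second, above Cl_1 in both. tRNA-Met-CAT-4, an elongator tRNA for methionine, was at 185 and 288 CPM in Cl_1, 531 and 659 in Cl_2 and 726 and 937 in Cl_3, a difference of -1.57 (SE 0.22, edgeR adjusted p = 0.00226). tRNA-Thr-AGT-6 was at 148 and 241 CPM in Cl_1, 493 and 576 in Cl_2 and 565 and 839 in Cl_3, a difference of -1.66 (SE 0.26, edgeR adjusted p = 0.00359). tRNA-Gln-TTG-2, a glutamine isodecoder, was at 64.6 and 91.3 CPM in Cl_1, 186 and 214 in Cl_2 and 237 and 333 in Cl_3, a difference of -1.62 (SE 0.22, edgeR adjusted p = 0.00218). In each of the 13 lower rows shown by library, the 2 Cl_1 libraries were closer to each other than to any other Cl library. The rows were picked from these counts by the smallest p, most of them also for no overlap between the groups. This choice favours such gaps, so they are not independent evidence of a difference. Over the 18 alternative analyses run on the 13 rows, their log2 differences ran from -2.56 to -0.72. All 13 stayed past the threshold in each of these analyses that kept the 2 Cl_1 libraries apart. The analyses reused the same counts, so calls kept by rows picked for the smallest p are not independent support. Among all the lower rows, some lost the call when a library was left out.

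The most abundant of the lower rows moved less. tRNA-Gln-CTG-3 was at 9126 and 8144 CPM in Cl_1, 10204 and 11006 in Cl_2 and 9609 and 10762 in Cl_3, a difference of -0.27 (SE 0.08, edgeR adjusted p = 0.0498). tRNA-Ile-TAT-1, an isoleucine tRNA with an anticodon for AUA codons, was at 4802 and 4445 CPM in Cl_1, 5974 and 6448 in Cl_2 and 5851 and 6196 in Cl_3, a difference of -0.40 (SE 0.06, edgeR adjusted p = 0.00413). Cl_1 did not overlap the other lines in either. These calls, with that of tRNA-Ala-AGC-2, were less stable. tRNA-Gln-CTG-3 lost its call without any 1 library other than Ctrl_1 replicate 2. Of the libraries left out in turn, tRNA-Ile-TAT-1 lost it with Cl_1 replicate 2, and tRNA-Ala-AGC-2 without either Cl_1 library, Cl_2 replicate 2 or either Cl_3 library (edgeR adjusted p up to 0.390 among all of these). With the libraries of each line summed, tRNA-Ile-TAT-1, tRNA-Gln-CTG-3 and tRNA-Ala-AGC-2 all lost their calls (edgeR adjusted p = 0.159, 0.407 and 0.457).

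The 16 rises that passed were small and lay mostly in abundant isodecoders. Larger positive differences, up to 0.95 in an initiator methionine row, did not pass with edgeR. tRNA-Arg-CCG-2, which reads the arginine codon CGG, was at 6064 and 5973 CPM in Cl_1, 4805 and 4782 in Cl_2 and 4839 and 5002 in Cl_3, a difference of 0.31 (SE 0.05, edgeR adjusted p = 0.00535). tRNA-Leu-CAG-1 was at 6341 and 5554 CPM in Cl_1, 4715 and 4672 in Cl_2 and 4546 and 4226 in Cl_3, a difference of 0.39 (SE 0.07, edgeR adjusted p = 0.00712). The most abundant row that rose, tRNA-Pro-AGG-1, was at 17848 and 18770.2 CPM in Cl_1, 15064 and 15839 in Cl_2 and 16859 and 16340.1 in Cl_3, a difference of 0.19 (SE 0.05, edgeR adjusted p = 0.0261). In each the Cl_1 libraries were the highest of the 6. Differences were 0.28 for tRNA-Pro-TGG-2, 0.26 for tRNA-Ser-CGA-2, 0.20 for tRNA-Thr-TGT-3/2, 0.29 for tRNA-Leu-CAG-2, 0.39 for tRNA-Leu-CAA-3, 0.35 for tRNA-Leu-CAA-2 and 0.29 for tRNA-Arg-CCG-3 (edgeR adjusted p = 0.0115 to 0.0377). The largest rise that passed was tRNA-Ser-CGA-3 at 0.48 (edgeR adjusted p = 0.0298), named after its value was seen. Of the 11 rises named by rule, 2 kept the call whichever library was left out, tRNA-Arg-CCG-2 and tRNA-Leu-CAG-1. The number that lost it was 7 without Cl_1 replicate 1, 4 without Cl_1 replicate 2, 8 without Cl_2 replicate 1, 6 without Cl_2 replicate 2, 1 without Cl_3 replicate 1, 7 without Cl_3 replicate 2, 1 without Ctrl_1 replicate 1 and 5 without Ctrl_1 replicate 2 (edgeR adjusted p up to 0.181). With the libraries of each line summed, 0 of the 16 rises kept the call, and tRNA-Arg-CCG-2 and tRNA-Leu-CAG-1 were at edgeR adjusted p = 0.162 and 0.0533.

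The lower rows were minor members of their anticodons. Of the 48 rows that were the most abundant isodecoder of their nuclear anticodon over the 6 libraries, 10 were higher in Cl_1 (20.8%) and 0 lower, with a median difference of 0.12 and 37 of 48 positive. Of the other 127 nuclear rows, 6 were higher (4.72%) and 33 lower (26%), with a median of -0.14 and 47 positive. Over all 201 rows 102 were positive. With library totals in place of scaling factors, 5 of the 48 were higher and 1 lower, and 2 of the 127 were higher and 34 lower. The median of the 48 was then 0.06, with 33 positive. DESeq2 put 16 of the 48 higher and 1 lower. No single library left out put any of the 48 lower. The number of them that rose then ran from 1, without Cl_2 replicate 1, to 13, without Cl_1 replicate 2. It was 3 without Cl_1 replicate 1, 3 without Cl_2 replicate 2, 2 without Cl_3 replicate 2 and 4 without Ctrl_1 replicate 2.

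The 33 lower rows held a median share of 3.48% of their anticodon's counts, from 0.0515% to 33.9%, and 27 of them held under 10%. The 16 higher rows held a median of 50.8%, and 13 of them over 25%. Over all 175 nuclear rows tested, 83 held under 10% and 67 over 25%. Split into 3 equal classes by mean CPM over the 8 MEF libraries, the lowest 67 rows held 0 higher and 13 lower rows, the middle 67 held 4 and 17, and the highest 67 held 12 and 3. The medians were -0.18, -0.10 and 0.11. The median level of the lower rows was 627 CPM.

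A test of each isodecoder against all tested isodecoders of its anticodon together, itself included, asked about the mix apart from the total. It covered 169 rows, and 25 passed (14.8%), all 25 lower in Cl_1 and 0 higher. At an unadjusted p under 0.05, 36 were lower and 1 higher. The number was 14 without Cl_1 replicate 1, again all lower. The smallest p belonged to tRNA-Ala-TGC-1, with a relative log2 difference of -1.78 (edgeR adjusted p = 8.30e-14). Its share of the anticodon was 1.78% and 2.44% in Cl_1, 6.11% and 6.78% in Cl_2, 7.56% and 8.69% in Cl_3. tRNA-Gly-CCC-2 followed the same order of lines with 1.55% and 2.15% in Cl_1, 5.08% and 5.66% in Cl_2, 6.28% and 7.95% in Cl_3, a relative difference of -1.74 (edgeR adjusted p = 2.75e-09). The values were -1.51 (edgeR adjusted p = 1.01e-10) for tRNA-Val-CAC-1, -1.58 (edgeR adjusted p = 2.80e-09) for tRNA-Met-CAT-4 and -1.64 (edgeR adjusted p = 3.85e-09) for tRNA-Thr-AGT-6. They were -1.70 (edgeR adjusted p = 1.92e-08) for tRNA-Phe-GAA-2, -1.75 (edgeR adjusted p = 1.92e-08) for tRNA-Gln-TTG-2, -1.50 (edgeR adjusted p = 1.92e-08) for tRNA-Ala-TGC-6 and -1.43 (edgeR adjusted p = 1.33e-07) for tRNA-Lys-TTT-2. Replicate spread in this test is pooled over the isodecoders of an anticodon. An isodecoder that holds most of its anticodon's counts lies close to the reference by construction. The rows named here were also called lower in the first test, which used the same fit, so the tests are not independent.

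**Figure D3:**
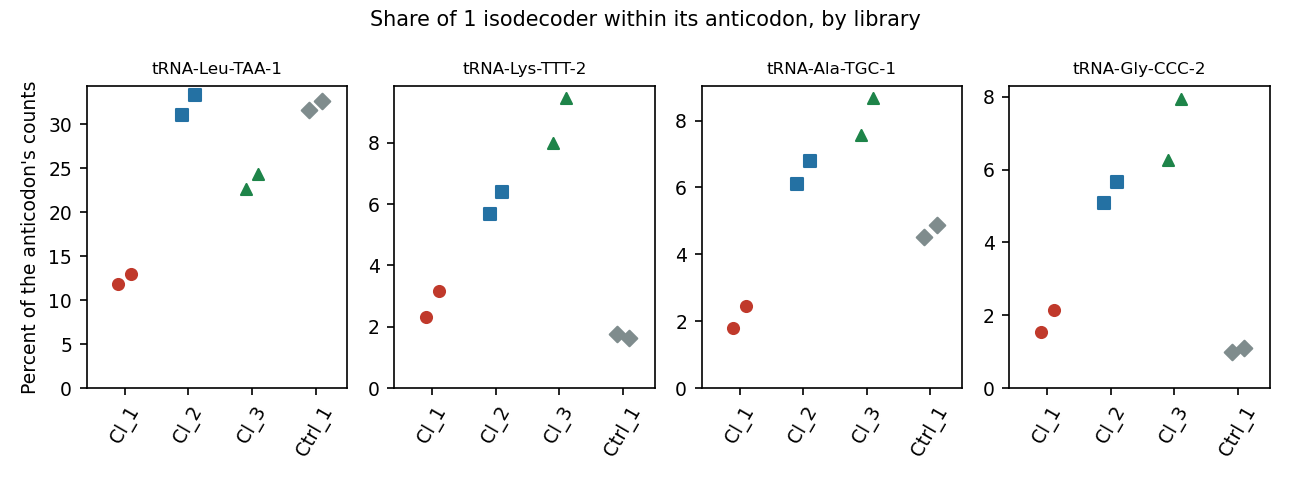
Percent of an anticodon's counts held by 1 isodecoder (y axis, from 0) in each library, for 4 isodecoders and 4 lines. The Cl_1 points are below those of Cl_2 and Cl_3 in all 4 panels, and Ctrl_1 lies within the range of Cl_2 for tRNA-Leu-TAA-1 but is lowest for tRNA-Lys-TTT-2 and tRNA-Gly-CCC-2.

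Of the 48 nuclear anticodons, 29 held at least 1 called row, and 2 held called rows of both directions. Both are named after their values were seen. For tRNA-Gln-TTG, tRNA-Gln-TTG-2 was lower while the most abundant isodecoder, tRNA-Gln-TTG-3, was higher by 0.23 (SE 0.06, edgeR adjusted p = 0.0285). For tRNA-Thr-CGT, tRNA-Thr-CGT-1 was higher by 0.22 (SE 0.06, edgeR adjusted p = 0.0394). tRNA-Thr-CGT-3 and tRNA-Thr-CGT-4 were lower, at -0.98 (SE 0.19, edgeR adjusted p = 0.0108) and -1.32 (SE 0.19, edgeR adjusted p = 0.00260). tRNA-Thr-CGT-4 was at 181 and 254 CPM in Cl_1, 504 and 583 in Cl_2 and 491 and 589 in Cl_3, and Ctrl_1 at 159.8 and 194 CPM, which overlapped Cl_1.

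Summed over the isodecoders of an anticodon, 2 of 70 sums passed (2.86%), 1 lower and 1 higher (1.43% each), and 9 had an unadjusted p under 0.05 (12.9%). The 48 nuclear sums ranged from -0.28 to 0.26 with an SD of 0.12, against -2.38 to 0.95 with an SD of 0.53 for the 175 nuclear isodecoders. These spreads are not like for like. The 33 lower rows held a median of 3.48% of their anticodon's counts, so their falls move a sum little by construction. The 175 rows also reach down to a mean of 2.69 CPM. Summed tRNA-Leu-TAA was at 8281 and 7913 CPM in Cl_1, 8577 and 8708 in Cl_2 and 10393 and 10303 in Cl_3, and at 10557 and 10459 CPM in Ctrl_1, a difference of -0.22 (SE 0.04, edgeR adjusted p = 0.0185). Cl_3 stood apart from both Cl_1 and Cl_2 here: the difference was -0.09 against Cl_2 (edgeR adjusted p = 0.333), -0.35 against Cl_3 (adjusted p = 0.00193) and -0.26 between Cl_2 and Cl_3 (adjusted p = 0.0197). With Cl_2 and Cl_3 as 1 group of 4 libraries it no longer passed (edgeR adjusted p = 0.321).

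Summed tRNA-Leu-CAG, which reads the leucine codon CUG, was at 14189.9 and 13616 CPM in Cl_1, 11999.7 and 11284 in Cl_2 and 12062 and 10958 in Cl_3, and at 12038 and 12229 CPM in Ctrl_1. Both Cl_1 libraries were the highest of all 8, and the difference was 0.26 (SE 0.05, edgeR adjusted p = 0.0185), 0.26 against Cl_2 and 0.27 against Cl_3. Both of its major isodecoders were among the 16 rises. Taken line by line, 0 sums passed between Cl_1 and Cl_2 with edgeR, with 10 at an unadjusted p under 0.05 (14.3%). Between Cl_1 and Cl_3 there were 3 (4.29%), tRNA-Leu-CAG higher (1.43%) and tRNA-Leu-TAA and tRNA-Val-TAC lower (2.86%), and between Cl_2 and Cl_3 there was 1 (1.43%), tRNA-Leu-TAA. The next smallest p belonged to summed tRNA-Val-TAC at -0.18 (SE 0.04, edgeR adjusted p = 0.0617), tRNA-Pro-AGG at 0.13 (SE 0.04, edgeR adjusted p = 0.160) and tRNA-Arg-CCG at 0.20 (SE 0.06, edgeR adjusted p = 0.160), none of which passed. The calls of both leucine sums were lost without Cl_1 replicate 1, Cl_1 replicate 2, Cl_2 replicate 2 or Cl_3 replicate 2, with edgeR adjusted p from 0.0750 to 0.150, and when the 2 libraries of a line were added up (adjusted p = 0.961).

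**Figure D4:**
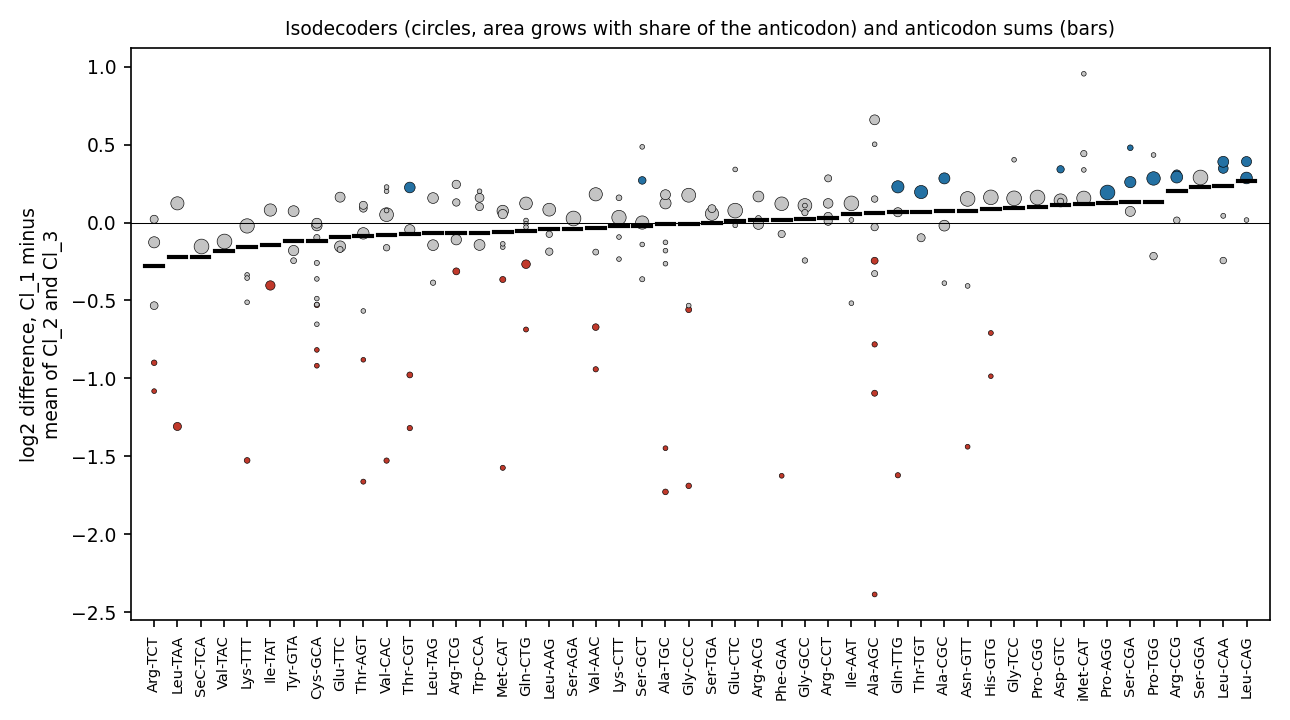
Log2 difference of Cl_1 from the mean of Cl_2 and Cl_3 (y axis) for the isodecoders (circles, larger for a larger share of the anticodon) and the sum (black bar) of the nuclear anticodons on the x axis. Sums stay between -0.28 and 0.26, while small circles called lower (red) reach -2.38; rows called higher are blue and other rows grey.

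By amino acid, lower rows were spread over 14 of the families. The counts of each list stand against 16.4% lower and 7.96% higher over all 201 rows. Beside alanine, threonine held 4 lower and 2 higher of 12 rows tested (median -0.08), arginine 3 and 2 of 19 (0.02), valine 3 and 0 of 11 (-0.12), and glutamine 3 and 1 of 9 (-0.01). Cysteine held 3 lower of 12 (median -0.42), and all 12 of its differences were negative. They were so under each of the 4 other scalings or tools as well, all run on the same counts. Summed tRNA-Cys-GCA differed by only -0.12 and did not pass (edgeR adjusted p = 0.508). The lower cysteine rows were tRNA-Cys-GCA-4 at -0.92, tRNA-Cys-GCA-8 at -0.82 and tRNA-Cys-GCA-1 at -0.53 (edgeR adjusted p = 0.00222, 0.00535 and 0.0101), named after their values were seen. Histidine held 2 lower of 3, glycine 2 of 10 and elongator methionine 2 of 6, and asparagine, isoleucine, lysine, phenylalanine and leucine held 1 each.

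Rises went to leucine, with 4 of 15 rows tested (median 0.04), serine with 3 of 12 (0.08), and proline with 2 of 5 (0.19). With library totals the medians were -0.01, 0.02 and 0.14, and the rises 3, 1 and 0. Leucine, serine and selenocysteine tRNAs share a long variable arm, and of their 28 rows 7 rose and 1 fell (median 0.06), against 7.96% and 16.4% over all rows. With library totals 3 leucine rows, 1 serine row and 0 selenocysteine rows rose. Aspartate held 1 rise among 3 rows. Of the 4 initiator methionine rows 0 passed with edgeR and 2 with DESeq2, and all 4 were positive (median 0.39). Glutamate (6 rows), tryptophan (4), tyrosine (3) and selenocysteine (1) held no call, and the 2 rows named Sup were not tested. By the first anticodon base, which pairs with the last base of the codon, 1 row rose and 8 fell of 30 with A (median -0.05), 10 and 9 of 63 with C (0.05), 2 and 7 of 37 with G (-0.10) and 3 and 9 of 45 with T (-0.13).

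No mitochondrial tRNA passed the test between Cl_1 and the other lines. Of 22 rows 0 were called with edgeR and 0 with DESeq2, and 1 had an unadjusted p under 0.05 with either tool. The tRNA whose gene the study set out to correct, mt-tRNA-Ala, was at 125 and 160.2 CPM in Cl_1, 234 and 287 in Cl_2 and 127 and 104 in Cl_3, from 420 and 372, 717 and 437, and 403 and 359 counts. Cl_1 lay below Cl_2 and overlapped Cl_3, and Ctrl_1 was highest with 588 and 456 CPM. The difference from the mean of Cl_2 and Cl_3 was -0.28 (SE 0.19, edgeR adjusted p = 0.300). Against Cl_2 alone it was -0.87 (edgeR adjusted p = 0.0338), against Cl_3 alone 0.30 (adjusted p = 0.326), and Cl_2 minus Cl_3 was 1.17 (adjusted p = 0.0551). In the fit of the anticodon sums, where this tRNA is its own sum, the difference from Cl_2 was -0.91 and did not pass (edgeR adjusted p = 0.241). Cl_2 and Cl_3 were thus farther apart in this tRNA than either was from Cl_1.

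As a share of mitochondrial tRNA counts, mt-tRNA-Ala was 0.568% and 0.538% in Cl_1, 0.975% and 1.10% in Cl_2, and 0.546% and 0.422% in Cl_3, and 1.47% and 1.29% in Ctrl_1. The 95% Wilson intervals of the Cl_1 libraries, 0.517% to 0.625% and 0.486% to 0.595%, overlapped that of the first Cl_3 library, 0.496% to 0.602%, and were below those of Cl_2, which began at 0.906% and 1.002%. They cover counting error only. The mean was 0.553% ± 0.0216 (SD, n = 2) in Cl_1 and 0.761% ± 0.328 (SD, n = 4) in Cl_2 and Cl_3. The difference, -0.208 percentage points, was within the SD of the Cl_2 and Cl_3 libraries, which includes the gap between these lines. An exact two-sided permutation test over 15 splits gave p = 0.467 (Benjamini-Hochberg 0.867 over 2 shares tested, smallest p possible 0.0667). It shuffles libraries across lines, so its p does not measure the spread between passages.

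All mitochondrial tRNAs together made up 2.14% and 3.01% of counts in Cl_1, 2.42% and 2.70% in Cl_2, 2.39% and 2.61% in Cl_3 and 3.74% and 3.41% in Ctrl_1. The 2 Cl_1 libraries were the lowest and the highest of the 6 Cl libraries. The means were 2.57% ± 0.614 (SD, n = 2) and 2.53% ± 0.146 (SD, n = 4), a difference of 0.0442 percentage points, within the spread (exact two-sided permutation test, p = 0.867). Single rows moved with this gap between the Cl_1 libraries. Without Cl_1 replicate 1, 20 of the 22 differences were positive (median 0.29) and mt-tRNA-Gly passed at 0.83 (edgeR adjusted p = 0.0383). Without Cl_1 replicate 2, 8 were positive (median -0.15), and mt-tRNA-Asn at -0.88 and mt-tRNA-Asp at -0.81 passed (edgeR adjusted p = 0.0307 and 0.0366).

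The smallest p among the 22 belonged to mt-tRNA-Met, at 1327 and 1727 CPM in Cl_1, 1248 and 1027 in Cl_2 and 1221 and 1362 in Cl_3, a difference of 0.33 (SE 0.14, edgeR adjusted p = 0.116), with 1 Cl_1 library inside the range of the other lines. mt-tRNA-Phe differed by 0.22, mt-tRNA-His by 0.21 and mt-tRNA-Tyr by -0.15 (edgeR adjusted p = 0.168, 0.174 and 0.211). Of the 8 tRNAs on the strand that encodes mt-tRNA-Ala, 6 differences were negative, with a median of -0.16. Of the 14 on the other strand 12 were positive, with a median of 0.17, against 0.11 over all 22. No row of either strand passed.

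**Figure D5:**
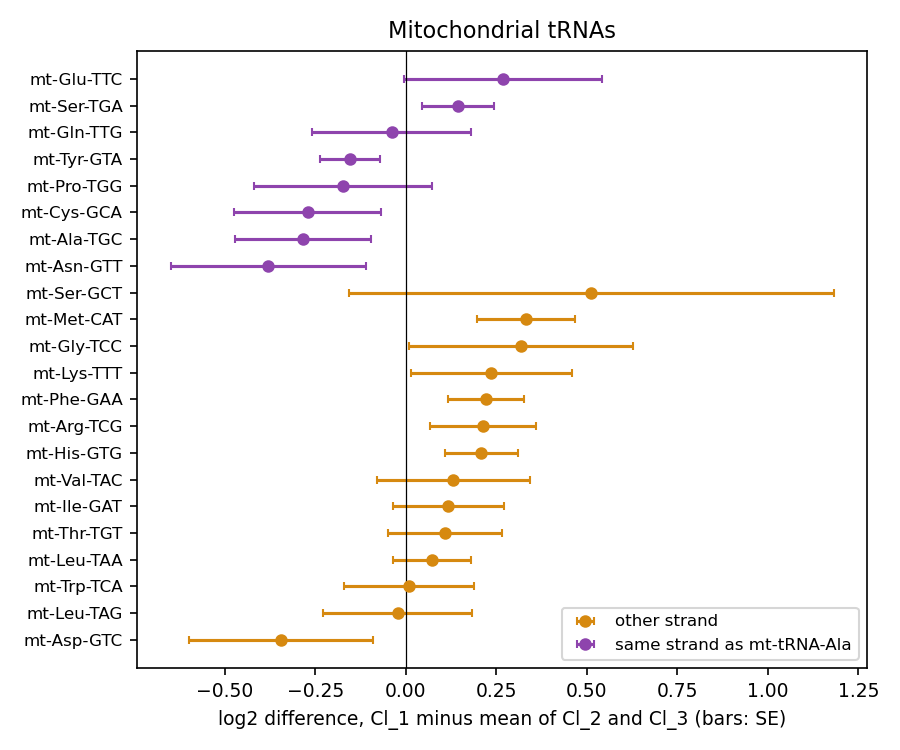
Log2 difference of Cl_1 from the mean of Cl_2 and Cl_3 (x axis) with its SE (bars) for the 22 mitochondrial tRNAs, grouped by the strand that encodes them. Points scatter on both sides of 0 in both groups; mt-tRNA-Ala is at -0.28 and mt-tRNA-Met at 0.33, and none passed the test.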

How the data were processed

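tRNA was sequenced in 8 MEF libraries by mim-tRNAseq, and the authors deposited raw read counts per tRNA as 1 table of whole numbers. The submitters' processing notes name cutadapt 3.5 and build mm39. How reads were aligned and counted, and how those shared by near-identical isodecoders were assigned, is not given in the sources used, so the split of reads among close isodecoders is uncertain. Groups came from the titles, and all columns matched a title. The heart table was not used here.

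The test was edgeR's quasi-likelihood F test (edgeR 4.0.16, R 4.3.3) after TMM scaling and the filterByExpr filter by line (minimum count 10, minimum total 15), fitted on all 8 libraries with the line as factor, Benjamini-Hochberg adjustment over all rows tested and a threshold of 0.05. Ctrl_1 added to scaling, filter and spread only. The SE is the log2 difference divided by the square root of F. The same test was run on counts summed per anticodon (mitochondrial and nuclear apart, initiator methionine apart, tRX left out). For the isodecoder mix, diffSpliceDGE compared each of 169 isodecoders with all tested isodecoders of its anticodon together, itself included. Shares of counts were compared by exact permutation tests. Scripts were tested on simulated data.

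Named rows were mt-tRNA-Ala; the 5 mitochondrial rows with the smallest p; the 10 higher and 10 lower called nuclear rows with the smallest p and no overlap between groups; the 3 most abundant called rows in each direction; the 5 anticodon sums and the 10 rows of the isodecoder mix with the smallest p. Partner isodecoders are given beside them. Lists were mitochondrial tRNAs by strand, nuclear tRNAs by amino acid, by first anticodon base and by long variable arm, and 3 classes of level. The members, rules and lists were chosen with earlier results of these data known. Alternatives were other scalings, DESeq2 1.42.0, no filter or a minimum count of 50, the 6 Cl libraries alone, Cl_2 and Cl_3 as 1 group, summed libraries per line, a replicate block, each library left out, and tRX rows left out.

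The 2 libraries of a line were not copies of each other: chi-square of their counts was far above sampling noise (per degree of freedom, 93.9 in Cl_1, 94.1 in Cl_2 and 139.9 in Cl_3). Deviations of libraries with the same replicate number correlated across rows at 0.0698 to 0.248 between lines, all positive. Among the 33 lower rows, library 2 was above library 1 in 27 in Cl_1, 27 in Cl_2, 32 in Cl_3 and 15 in Ctrl_1. The labels do not say what libraries with the same number share, so the main test did not pair them. With the number as a block 55 rows passed, 48 of them shared with the main test. What the numbers share was not tested.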

Additional observations from a re-analysis of the deposited data

How the results depend on the processing

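The number of isodecoder calls was 42 with library totals (40 shared with the 49), 42 with nuclear counts as library size (40), 47 with RLE size factors (46), 64 with DESeq2 (48), 52 without the filter and 50 with a minimum count of 50. There were 50 with the 6 Cl libraries alone (47 shared), 44 with Cl_2 and Cl_3 as 1 group (44), 47 without tRX rows, and 23 when the libraries of each line were summed (2 higher and 21 lower, 19 shared), a design with 1 Cl_1 value. Leaving out 1 library gave 29 to 45 calls. For the isodecoder mix the number was 14 to 30 with 1 library left out, 14 being without Cl_1 replicate 1, and 23 with summed libraries. For the anticodon sums it was 0 to 3 with 1 library left out, 1 with Cl_2 and Cl_3 as 1 group and 0 with summed libraries. With the replicate number as a block there were 55 isodecoder calls (48 shared), 31 of the mix and 2 anticodon sums, and the difference of mt-tRNA-Ala was -0.28 (edgeR adjusted p = 0.303). Over its 18 alternatives mt-tRNA-Ala ran from -0.41 to -0.08 and did not pass (edgeR and DESeq2 adjusted p = 0.215 to 0.839). The difference in mitochondrial share of counts was -0.390 to 0.478 percentage points with 1 library left out, the extremes being without Cl_1 replicate 2 and without Cl_1 replicate 1, and that of mt-tRNA-Ala within mitochondrial counts -0.321 to -0.0944. Of the 10 named rises, 0 passed under all 18 alternatives, and 53 of 180 values lost the call (edgeR and DESeq2 adjusted p up to 0.354). The causes were not tested. The mt-tRNA-Ala row had 359 to 717 counts in the Cl libraries, and its difference was negative against Cl_2 and positive against Cl_3.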

Other observations

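Among the tRNA-Ala isodecoders with anticodon AGC, the most abundant one differed widely between the 2 libraries of Cl_2, of Cl_3 and of Ctrl_1, and less between those of Cl_1. tRNA-Ala-AGC-4 stood at 24311 and 20080.4 CPM in Cl_1, 20131 and 8990.2 in Cl_2, 19117 and 8040.0 in Cl_3 and 24353 and 11058 in Ctrl_1. Its share of the anticodon's counts was 51.9% and 48.3% in Cl_1, 42.4% and 27.2% in Cl_2, 39.5% and 24.1% in Cl_3 and 47.1% and 32.5% in Ctrl_1. tRNA-Ala-AGC-5 moved with it, at 5012 and 1825 CPM in Cl_2, 6391 and 2197 in Cl_3 and 4781 and 1635 in Ctrl_1, against 2982 and 3129 in Cl_1. The differences of Cl_1 were 0.66 for tRNA-Ala-AGC-4 and -0.33 for tRNA-Ala-AGC-5, and neither passed (edgeR adjusted p = 0.312 and 0.712). Both rows were chosen after their values were seen.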
